A study of Mus musculus with 9 samples.

Results

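S100A genes encode small calcium-binding proteins, and 10 of them were followed here in whole mouse ear skin: S100a3, S100a4, S100a6, S100a7a, S100a8, S100a9, S100a10, S100a11, S100a14 and S100a16. They were taken by symbol from the 19938 genes measured with 1 gene symbol on the array, and all 10 were measured. All mice were female, of C57BL/6 background and 7 to 9 weeks old, and total RNA of the ear was hybridised to Affymetrix Mouse Gene 1.0 ST arrays. One group of 3 received anisomycin, an antibiotic that stalls ribosomes and switches on stress kinases, at 2 mg/ml in 99.5% ethanol, 10 µl on either face of the ear, on 5 days. A second group of 3 received 10 mg of a 5% imiquimod cream on the ear, also for 5 days. Imiquimod activates Toll-like receptor 7, and its cream is a common way to bring on psoriasis-like dermatitis in mice. The third group of 3 is labelled vehicle. The labels do not say which vehicle these mice had or for how long, so effects of ethanol or of the cream base cannot be told apart from those of the drugs. The labels do not identify the animal behind each array, and if they did not come from separate mice, the p-values cover nothing but the variation among these samples, which may be technical.

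S100A proteins carry a pair of EF-hand calcium-binding motifs and mostly work as dimers that bind target proteins when calcium rises. S100a8 and S100a9 together form calprotectin, the main cytosolic protein of neutrophils, which keratinocytes also make in injured and psoriatic skin and which withholds zinc and manganese from microbes. Most S100A genes lie next to each other in the epidermal differentiation complex, a stretch of the genome that also holds the genes of the cornified envelope. In RefSeq (GRCm38.p6) all 10 members lie on chromosome 3. S100a1 to S100a9 form a run of 12 adjacent protein-coding genes, all of them S100A genes, and S100a11 and S100a10 lie side by side 56 protein-coding genes further on.

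The 250 bases before the RefSeq start are printed for the calprotectin pair, which changed most, for S100a11, whose window holds 2 AP-1 matches, and for S100a4, which fell under both treatments. Sequences run 5′ to 3′, come from RefSeq build GRCm38.p6 and are in lower case, with capitals for matches to any of 4 motifs searched on both strands. These were AP-1 (TGANTCA), C/EBP (TTNNGNAA), NF-kB (GGG, 5 bases of any kind, then CC) and STAT (TTCNNNGAA), whose matches may overlap. The windows lie at chr3:90668821-90669070 on the plus strand for S100a8, chr3:90695722-90695971 on the minus strand for S100a9, chr3:93520246-93520495 on the plus strand for S100a11 and chr3:90603520-90603769 on the plus strand for S100a4.
S100a8: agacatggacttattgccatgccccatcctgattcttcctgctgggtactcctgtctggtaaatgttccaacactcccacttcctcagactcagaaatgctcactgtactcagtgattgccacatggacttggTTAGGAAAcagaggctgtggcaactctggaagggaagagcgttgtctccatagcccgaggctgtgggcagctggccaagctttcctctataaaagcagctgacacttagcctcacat
S100a9: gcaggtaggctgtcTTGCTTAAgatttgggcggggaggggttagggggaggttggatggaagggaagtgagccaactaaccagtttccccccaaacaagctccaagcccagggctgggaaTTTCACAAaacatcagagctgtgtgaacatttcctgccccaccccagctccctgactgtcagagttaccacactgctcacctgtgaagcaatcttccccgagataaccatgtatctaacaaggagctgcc
S100a11: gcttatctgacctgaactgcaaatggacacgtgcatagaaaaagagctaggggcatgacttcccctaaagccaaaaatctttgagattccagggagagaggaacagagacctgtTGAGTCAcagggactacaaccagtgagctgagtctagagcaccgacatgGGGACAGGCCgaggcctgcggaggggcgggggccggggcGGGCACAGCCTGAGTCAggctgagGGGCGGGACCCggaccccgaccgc
S100a4: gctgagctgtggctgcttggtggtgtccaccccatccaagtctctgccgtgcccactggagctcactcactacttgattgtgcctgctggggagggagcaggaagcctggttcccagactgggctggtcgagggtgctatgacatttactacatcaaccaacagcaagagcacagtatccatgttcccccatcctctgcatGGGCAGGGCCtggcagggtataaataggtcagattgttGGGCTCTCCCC

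The S100a8 window has 1 C/EBP match and the S100a9 window 2, and neither has a match to the other 3 motifs. Of all 32851 windows of 250 bases, 36.8% hold a C/EBP match, so such a match is common. The S100a11 window has 2 AP-1 matches, where 6.7% of all windows hold at least 1. It was printed for these matches, so that share is no test of them. It also has 4 NF-kB matches, some of which overlap, and 45.8% of windows hold that motif. The S100a4 window has 3 NF-kB matches, some of which overlap. The S100a7a window, which is not printed, holds a STAT match, found in 7% of windows, and 1 NF-kB match. This window lies within the RefSeq span of the gene and may overlap a transcribed exon. S100a16 and S100a3 have more than 1 window, also not printed. An S100a16 window holds an AP-1 match, and C/EBP matches occur before S100a3, which fell under both treatments. NF-kB matches also occur before S100a16 and S100a6. RefSeq promoter entries, 12 windows in all, matched 8 of the 10 members, the others being S100a10 and S100a14. A match is a description of the letters, and binding was not measured.

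Values are log2 expression on the RMA scale, so a difference of 1 is a doubling, and n is 3 arrays per group throughout. Differences were tested with limma, and a difference is named as called where its p, adjusted by Benjamini-Hochberg over all genes, was under 0.05. The median over all 35556 rows, with or without a gene symbol, lay at 6.08 to 6.10 on vehicle arrays. It lay at 6.01 to 6.03 on arrays of treated ears. The 12 keratinocyte markers averaged 10.9 to 11.4 over the arrays, so the keratinocytes of the labelled tissue are present. Because the RNA is from whole ears, fewer cells of a type and less RNA per cell cannot be told apart.

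Against vehicle, anisomycin raised 7 members and lowered 2, and S100a10 was not called. With imiquimod 7 members rose and 2 fell as well, and S100a10 was again not called. Over all genes, 45.6% were called for anisomycin (22.3% higher and 23.3% lower) and 42.7% for imiquimod (20.4% higher and 22.4% lower). Rises of at least 2-fold were rarer, at 5.1% of all genes for anisomycin and 4.26% for imiquimod, and were reached by 5 and 4 of the 10 members. Treated and vehicle arrays did not overlap for 9 of the 10 members in either comparison, beside 51.3% of all genes for anisomycin and 51.8% for imiquimod. The median difference over the 10 members was 1.00 with anisomycin, beside -0.01 over all genes, and 0.88 with imiquimod, beside -0.03. The 2 treatments share their vehicle arrays, so their differences from vehicle are not independent of each other. The balance of calls over all genes moves with the scaling. Of the called genes 49.0% were higher with anisomycin and 47.7% with imiquimod, which became 61.5% and 58.1% with arrays centred on their medians and 40.5% and 38.1% when the arrays were centred on 1000 stable genes. The counts of called members were the same under both.

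**Figure D1:**
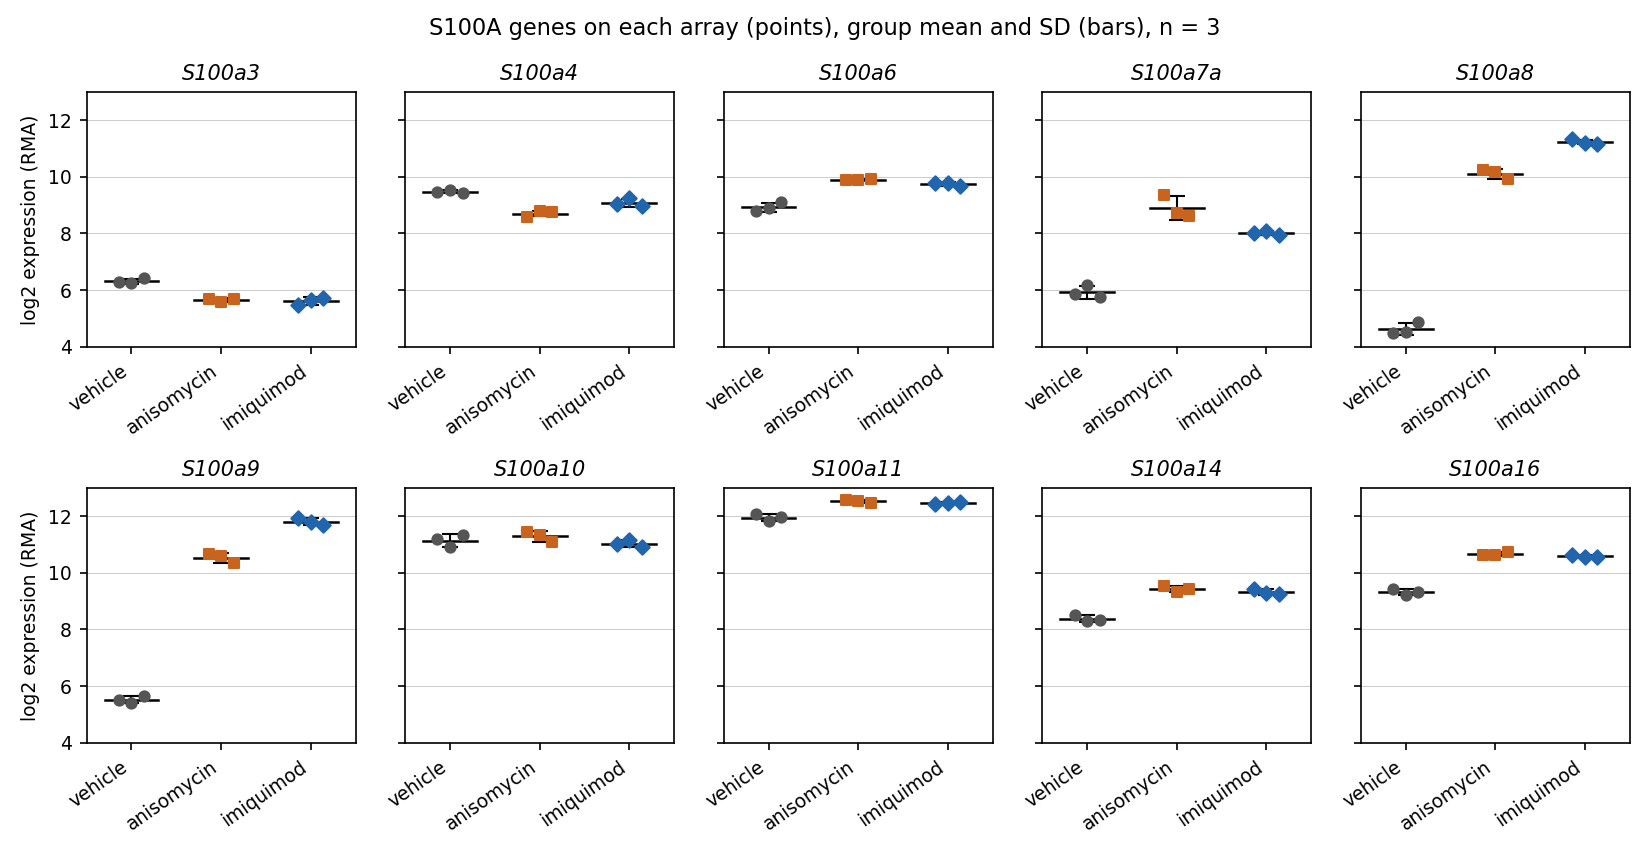
Each panel plots the log2 expression of 1 S100A gene on the 9 arrays, with points for arrays, a line at the group mean and bars of 1 SD (n = 3). S100a8 and S100a9 climb from 4.48 to 5.66 on the vehicle arrays to between 9.92 and 11.95 on the treated arrays, while S100a10 overlaps in all groups and S100a3 and S100a4 are lower after treatment.

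The calprotectin genes moved most. S100a8 read 4.48, 4.50 and 4.86 on the vehicle arrays, 10.24, 10.17 and 9.92 with anisomycin, and 11.33, 11.20 and 11.18 with imiquimod. The 3 groups did not overlap, and vehicle was lowest and imiquimod highest. S100a8 rose by 5.50 with anisomycin (SE 0.12, adjusted p = 2.44e-09), which is 45.2-fold with a 95% interval of 37.6 to 54.2. It rose by 6.62 with imiquimod (SE 0.12, adjusted p = 7.98e-10), which is 98.7-fold with an interval of 82.2 to 118.4. Its vehicle level is low on this array, where 10% of genes average under 3.98, and rises from dim levels can be understated.

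S100a9 read 5.50, 5.40 and 5.66 on the vehicle arrays, 10.66, 10.61 and 10.34 with anisomycin, and 11.95, 11.79 and 11.71 with imiquimod. Again no groups overlapped, with the same order. The rise was 5.01 with anisomycin (SE 0.10, adjusted p = 2.21e-09), or 32.3-fold, and 6.29 with imiquimod (SE 0.10, adjusted p = 5.63e-10), or 78.5-fold. Their protein products pair with each other, and the genes were compared for how far each moved. The rise of S100a8 exceeded that of S100a9 by 0.48 with anisomycin and by 0.33 with imiquimod. In both cases all arrays of the treated group lay beyond all vehicle arrays, and the exact two-sided permutation test gave p = 0.1, the smallest that 3 against 3 arrays allow.

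S100a7a, the mouse relative of human psoriasin and koebnerisin, is made by keratinocytes and attracts leukocytes. It read 5.85, 6.17 and 5.74 on the vehicle arrays, 9.37, 8.73 and 8.62 with anisomycin, and 8.01, 8.10 and 7.96 with imiquimod. No groups overlapped, and here anisomycin was highest, with replicate 1 above the other two. S100a7a rose by 2.99 with anisomycin (SE 0.19, adjusted p = 2.11e-06), or 7.93-fold, and by 2.11 with imiquimod (SE 0.19, adjusted p = 2.17e-05), or 4.31-fold.

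S100a14 and S100a16, which are most abundant in epithelia, rose by less. S100a16 ran from 9.21 to 9.45 on the vehicle arrays, 10.62 to 10.73 with anisomycin and 10.55 to 10.63 with imiquimod, so both treated groups lay above vehicle and overlapped each other. It rose by 1.34 with anisomycin (SE 0.07, adjusted p = 6.23e-07) and by 1.26 with imiquimod (SE 0.07, adjusted p = 1.42e-06). S100a14 ran from 8.31 to 8.51 on the vehicle arrays, 9.33 to 9.53 with anisomycin and 9.25 to 9.45 with imiquimod. It rose by 1.04 with anisomycin (SE 0.08, adjusted p = 7.75e-06) and by 0.95 with imiquimod (SE 0.08, adjusted p = 1.9e-05). The rises of this neighbouring pair were 1.93-fold to 2.53-fold.

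S100a6 (calcyclin), which binds annexin A11 and the calcyclin-binding protein Cacybp, read 8.80, 8.89 and 9.11 on the vehicle arrays, 9.88, 9.90 and 9.91 with anisomycin, and 9.78, 9.78 and 9.67 with imiquimod. No groups overlapped. S100a6 rose by 0.96 with anisomycin (SE 0.08, adjusted p = 9e-06) and by 0.81 with imiquimod (SE 0.08, adjusted p = 3.46e-05).

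S100a11 (calgizzarin), a partner of annexin A1 that is also built into the cornified envelope, rose least. It ran from 11.83 to 12.08 on the vehicle arrays, 12.46 to 12.58 with anisomycin and 12.45 to 12.50 with imiquimod, where the highest value in the whole table is 13.97. The rise was 0.57 with anisomycin (SE 0.07, adjusted p = 9.9e-05) and 0.51 with imiquimod (SE 0.07, adjusted p = 0.00024). After cyclic loess normalization the imiquimod rise was 0.26 and still called (adjusted p = 0.00359). These values are from the probe set with the higher mean of the 2 that carry this symbol. The other probe set gave rises of 0.63 and 0.56. In the numbering of the probe sets, the other one stands beside that of S100a10, and the kept one lies apart from it. Which of the 2 lies at the S100a11 gene on chromosome 3 was not checked on the genome. RefSeq lists 1 S100a11 pseudogene, and whether probes share signal with such copies was not tested.

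S100a10 (p11), which binds no calcium and joins annexin A2 in a complex at the plasma membrane, was the member not called. It ran from 10.91 to 11.33 on the vehicle arrays, 11.09 to 11.46 with anisomycin and 10.91 to 11.17 with imiquimod, and all 3 groups overlapped. The difference from vehicle was 0.16 with anisomycin (95% interval -0.13 to 0.44) and -0.11 with imiquimod (95% interval -0.40 to 0.17). A p above the threshold does not show that S100a10 was level, only that its difference lay within these intervals.

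S100a4, known as metastasin or fibroblast-specific protein 1, binds non-muscle myosin and is made by fibroblasts and many leukocytes. It read 9.47, 9.53 and 9.45 on the vehicle arrays, 8.59, 8.78 and 8.75 with anisomycin, and 9.03, 9.25 and 8.96 with imiquimod. No groups overlapped, and anisomycin was lowest. The difference was -0.78 with anisomycin (SE 0.08, adjusted p = 4.65e-05) and -0.40 with imiquimod (SE 0.08, adjusted p = 0.00312).

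S100a3, a cysteine-rich protein of the hair cuticle that peptidylarginine deiminases modify, also fell. It read 6.27, 6.24 and 6.42 on the vehicle arrays, 5.68, 5.58 and 5.68 with anisomycin, and 5.47, 5.64 and 5.73 with imiquimod. Treated arrays all lay below vehicle arrays and overlapped each other. The difference was -0.66 with anisomycin (SE 0.08, adjusted p = 8.43e-05) and -0.69 with imiquimod (SE 0.08, adjusted p = 8.21e-05). Equal values on a pair of arrays, as for S100a3 on anisomycin replicates 1 and 3, are common in this table, with 867 genes equal between those arrays. Between pairs of imiquimod arrays 1168 to 1309 genes were equal.

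**Figure D2:**
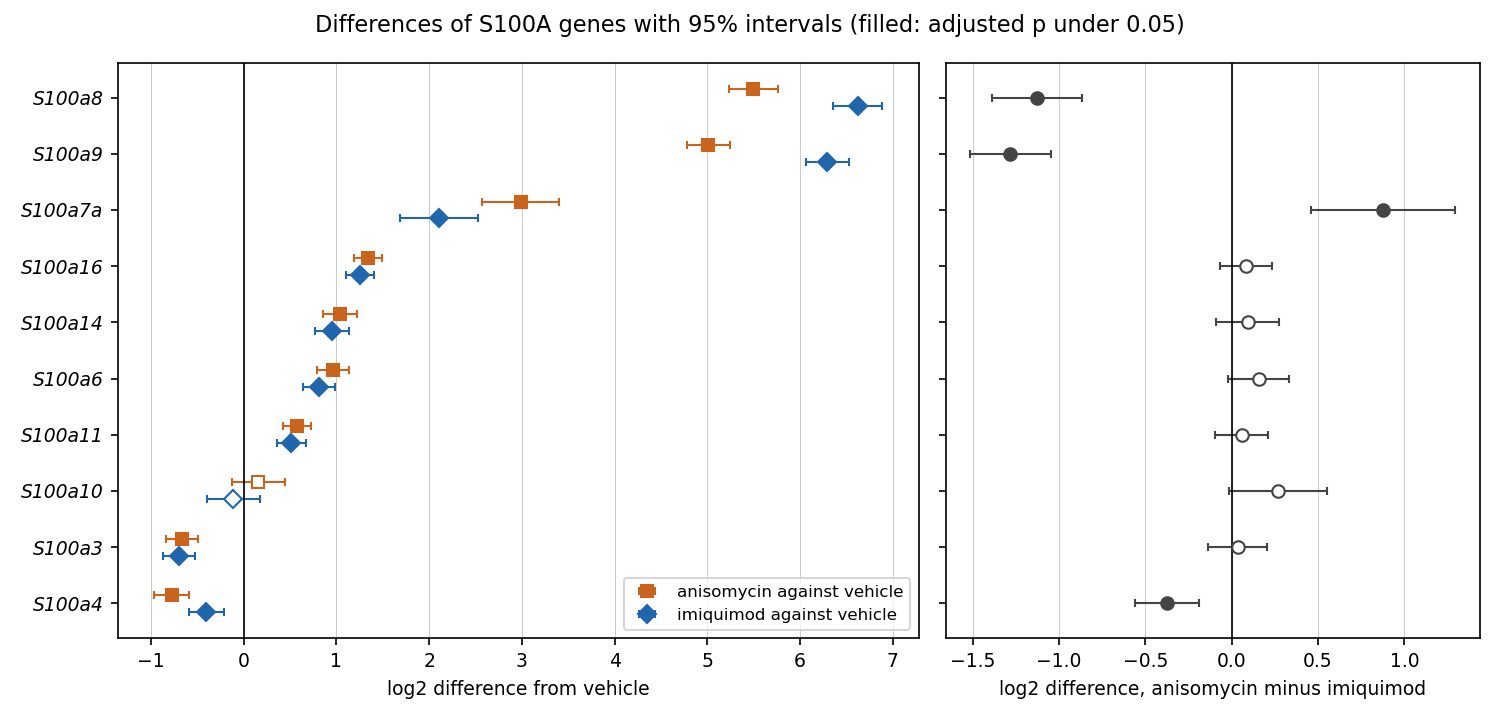
Log2 differences of the 10 genes with 95% intervals from limma, from vehicle on the left and between the treatments on the right, filled where the adjusted p was under 0.05. S100a8 and S100a9 lie to the left of 0 on the right side, at -1.13 and -1.28, and S100a7a lies to the right at 0.88.

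Setting the treatments directly against each other separated calprotectin from S100a7a. Of the 10 members 3 were lower and 1 higher with anisomycin than with imiquimod, and 6 were not called, where 20.4% of all genes were called (10.8% higher and 9.59% lower). S100a9 was lower with anisomycin by 2.43-fold (log2 difference -1.28, SE 0.10, adjusted p = 0.000109) and S100a8 by 2.18-fold (-1.13, SE 0.12, adjusted p = 0.000409). S100a4 was lower as well (-0.38, SE 0.08, adjusted p = 0.0123). S100a7a was 1.84-fold higher with anisomycin (0.88, SE 0.19, adjusted p = 0.0104), and still 0.64 higher without anisomycin replicate 1 (adjusted p = 0.0107). In each of these 4 genes the arrays of the treatments did not overlap, which also held for S100a6 and for 39.3% of all genes. None of the members was called at least 2-fold higher with anisomycin than with imiquimod, beside 0.923% of all genes.

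For the members not called, the intervals show what differences remain possible. S100a6 was 0.16 higher with anisomycin (95% interval -0.02 to 0.33) and S100a10 0.27 higher (-0.02 to 0.55). Both passed the threshold with array weights, at adjusted p = 0.0287 and 0.008. Under that setting the calls over all 19938 genes rose from 4059 to 8557. S100a14 differed by 0.09 (-0.09 to 0.28), S100a16 by 0.08 (-0.07 to 0.23), S100a11 by 0.06 (-0.09 to 0.21) and S100a3 by 0.03 (-0.14 to 0.21). A difference larger than 1.5-fold lies outside each of these 6 intervals.

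Of the other S100 genes, 7 of 9 listed were measured: S100a1, S100a2, S100a5, S100a13, S100b, S100g and S100z. With anisomycin 1 rose and 3 fell, with a median of -0.17, and with imiquimod 3 fell, with a median of -0.08. Beside this list and those below, 45.6% of all genes were called with anisomycin, 42.7% with imiquimod and 20.4% between the treatments. The 3 of 7 with imiquimod are close to that share. With arrays centred on their medians the counts were 2 higher and 2 lower with anisomycin (median -0.09) and 1 higher and 2 lower with imiquimod (median -0.016). S100b, a gene of Schwann cells, melanocytes, fat and cartilage, fell by 1.23 with anisomycin (adjusted p = 2.9e-05) and by 1.04 with imiquimod (adjusted p = 0.000103). S100a1, best known from muscle, fell by 0.47 and 0.35 (adjusted p = 0.00191 and 0.0116). S100a5 fell by 0.19 and 0.16, calls that ended under 7 and 12 of the 18 alternatives. S100a2 rose by 0.35 with anisomycin (adjusted p = 0.000536) and was 0.12 higher, not called, with imiquimod. The direct difference was 0.23 (adjusted p = 0.0178), a call that ended under 4 alternatives.

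Read along chromosome 3, genes that rose and genes that fell were interspersed. In order, S100a1 fell, S100a13 was not called, S100a14 and S100a16 rose, S100a3 fell, S100a2 rose with anisomycin, S100a4 and S100a5 fell, and S100a6, S100a7a, S100a8 and S100a9 rose. The last 3 of these adjoin each other and had the largest rises of the S100 genes. S100a8 and S100a9 are transcribed from opposite strands, the plus and minus strand respectively in RefSeq.

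**Figure D3:**
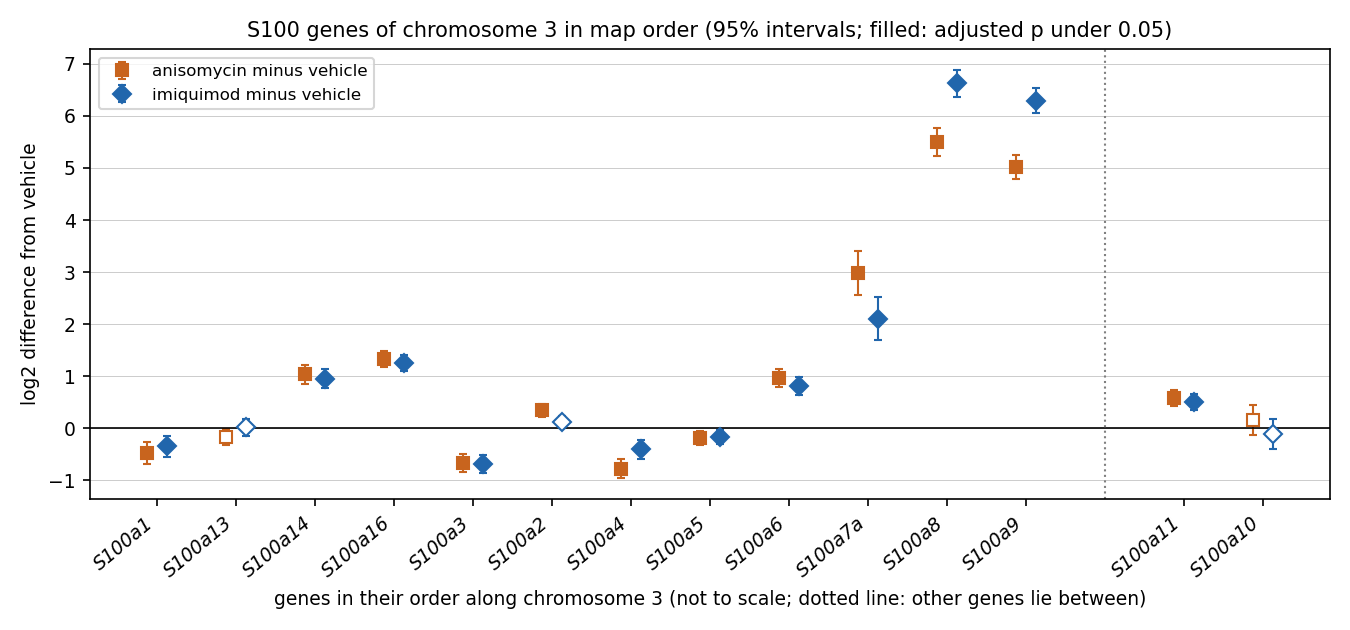
Log2 differences from vehicle, with 95% intervals, of the 14 measured S100 genes of chromosome 3 in their map order (spacing not to scale, filled where called). Falls of S100a3, S100a4 and S100a5 interrupt the rises of their neighbours, and the rises of S100a7a, S100a8 and S100a9 reach 2.11 to 6.62. S100a11 is drawn from its kept probe set, whose place on the genome was not checked.

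The fused-type relatives of the S100 family carry an S100 domain at the start of a long repetitive chain and build the cornified envelope and its keratin matrix. Of 7 listed, 6 were measured, and they did not move as one. With anisomycin Rptn (repetin) and Tchhl1 rose and Flg2 fell, with a median of -0.04, and with imiquimod Rptn and Hrnr (hornerin) rose and Flg2 fell, with a median of 0.13. The medians lie close to 0, and that of anisomycin was 0.04 with arrays centred on their medians. Rptn rose by 4.73 and 4.99 (adjusted p = 1.06e-07 and 1e-07) and Flg2 (filaggrin 2) had differences of -3.39 and -2.80 (adjusted p = 6.72e-05 and 0.000277). Hrnr was lower with anisomycin than with imiquimod (-1.04, adjusted p = 0.0306), a call that ended under 6 of the 18 alternatives, as did its imiquimod rise of 0.94 (adjusted p up to 0.0903 and 0.0868).

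Proteins that bind S100A dimers or sense them outside the cell were also measured, all 18 listed. With anisomycin 9 rose and 4 fell, with a median of 0.30, and with imiquimod 6 rose and 3 fell, with a median of 0.06. The imiquimod balance turned with scaling, to 5 and 6 with arrays centred on stable genes and to 4 and 4 after cyclic loess normalization. Anxa1, the partner of S100a11, rose by 1.24 with anisomycin (adjusted p = 3.32e-05) and by 0.55 with imiquimod (adjusted p = 0.00548). Anxa2, the partner of S100a10, rose by 0.65 (adjusted p = 8.13e-05) and by 0.34 (adjusted p = 0.00485), while S100a10 itself was not called. The imiquimod rise of Anxa2 became 0.14 and was not called after cyclic loess normalization. Anxa11, a partner of S100a6, rose by 0.84 with anisomycin (adjusted p = 1.6e-05) and by 0.21 with imiquimod, a call at adjusted p = 0.0485 that ended under 12 of the 18 alternatives. Myh9, the non-muscle myosin heavy chain that S100a4 binds, rose by 1.21 and 0.76 (adjusted p = 7.07e-07 and 1.43e-05), where S100a4 fell. Myh9 read 9.81 on all 3 imiquimod arrays, which narrows the spread behind these p-values.

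Among receptors, Tlr4, through which calprotectin signals, rose by 1.33 with anisomycin (adjusted p = 0.000185) and was 0.35 higher with imiquimod without being called (95% interval -0.04 to 0.74). The direct difference between treatments was 0.98 (adjusted p = 0.00482), opposite in sign to that of S100a8 and S100a9. Ly96 (MD-2), the co-receptor of Tlr4, rose by 0.77 and 0.88 (adjusted p = 0.01 and 0.00539). Ager, which encodes the receptor RAGE, was not called, at -0.16 under either treatment.

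Many neutrophil markers rose against vehicle, as did the calprotectin genes, which neutrophils also express. Of 17 measured markers, 11 rose with anisomycin and none fell, with a median of 0.97. With imiquimod 11 rose and G0s2 fell, also with a median of 0.97. Over all genes 22.3% and 20.4% were called higher. Camp, Mpo, Elane and Cd177 were not called in any comparison. The call of G0s2 ended under 2 alternatives. The mean log2 level of the list was 5.32 to 5.40 on the vehicle arrays, 6.94 to 7.23 with anisomycin and 6.89 to 7.10 with imiquimod, and none of the 17 averaged under 3.98 in vehicle. Csf3r, the receptor for granulocyte colony-stimulating factor, rose by 4.74 with anisomycin (adjusted p = 1.24e-07) and by 4.06 with imiquimod (adjusted p = 5.03e-07). Cxcr2, the main neutrophil chemokine receptor, rose by 4.97 and 4.71 (adjusted p = 1.89e-08 and 3.14e-08).

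Between the treatments these markers split. Higher with anisomycin were Clec4d (1.02, adjusted p = 0.00991), Trem1 (0.85, adjusted p = 0.0197), Mmp9 (0.77), Ltf (0.71) and Csf3r (0.68, adjusted p = 0.0267). Lower with anisomycin, as S100a8 and S100a9 were, were Retnlg (-0.84), Mmp8 (-0.79) and Ly6g (-0.67, adjusted p = 0.0064), and the other 9 were not called, Cxcr2 among them at 0.27. The call of Ltf ended without imiquimod replicate 2 or 3 (adjusted p up to 0.0509). The calls of Csf3r and Trem1 each ended under 5 alternatives, among them without anisomycin replicate 1 (adjusted p = 0.0948 and 0.069). The part that neutrophils have in the calprotectin differences was not tested.

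**Figure D4:**
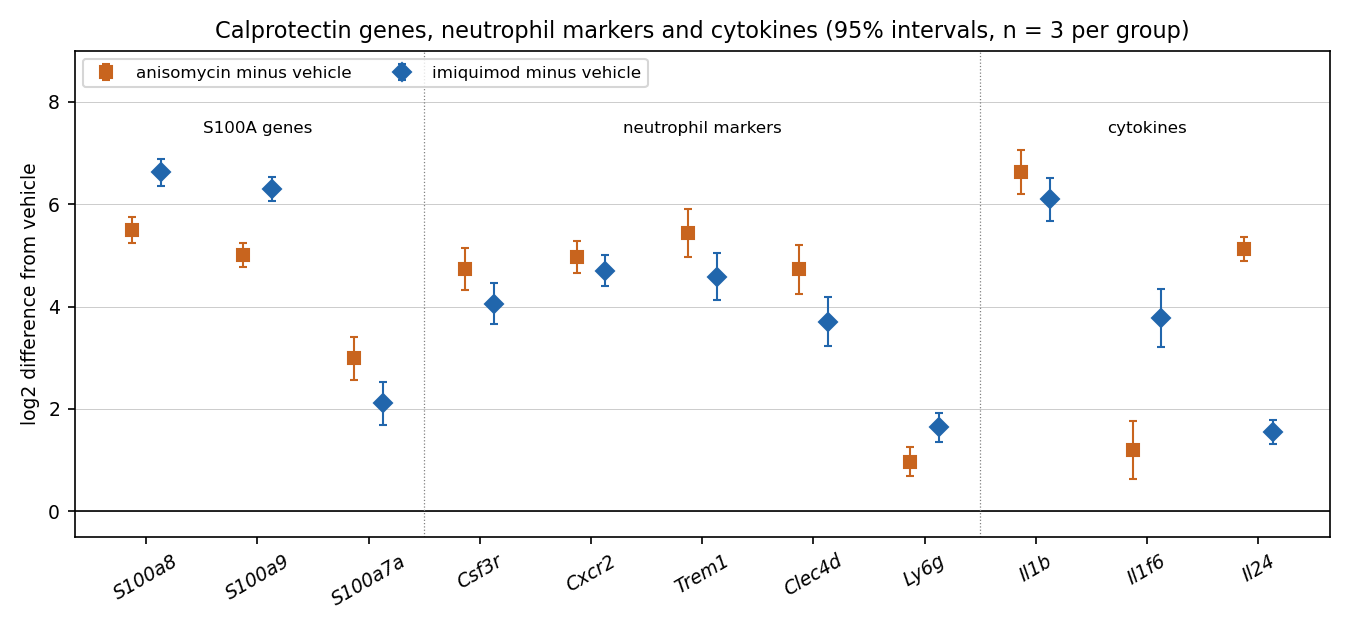
Log2 differences from vehicle with 95% intervals for 3 S100A genes, 5 neutrophil markers and 3 cytokines, squares for anisomycin and diamonds for imiquimod. S100a8, S100a9, Ly6g and Il1f6 are higher with imiquimod, and S100a7a, Trem1, Clec4d and Il24 are higher with anisomycin.

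Macrophage and monocyte markers gave 10 higher of 11 with anisomycin and 9 with imiquimod, none lower, with medians of 0.86 and 0.67. Fcgr1, a monocyte Fc receptor, rose by 2.30 and 1.61, and Ccr2, the receptor that brings monocytes into tissue, by 1.89 and 1.95. Mrc1, the mannose receptor, rose by 1.64 and 0.95, and Adgre1, a macrophage surface receptor, by 0.63 and 1.56. Between the treatments 6 of the 11 were higher with anisomycin and 1 lower, with a median of 0.20. The higher ones were Ms4a7 (0.89), Mrc1 (0.69), Fcgr1 (0.69), Cd163 (0.66), Cd68 (0.40) and C1qb (0.20), and Adgre1 was the lower one (-0.93, adjusted p = 0.000125). The calls of Fcgr1 and C1qb ended under 4 and 7 alternatives. T cell markers, another leukocyte source of S100a4, gave Cd5 higher and Cd247, Cd3e and Cd3g lower of 6 measured in both comparisons, with medians of -0.10 and -0.14. The calls of Cd247 with anisomycin and Cd3e with imiquimod ended under 7 and 5 alternatives. The largest of these falls was that of Cd3g, at -1.26 and -1.07.

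Most fibroblast markers fell against vehicle, as S100a4 did. Of 10, 6 fell and Pdgfra rose with anisomycin, with a median of -0.47, and 7 fell with imiquimod, with a median of -0.67. Dpt (dermatopontin) had differences of -1.59 and -1.48, Col1a1 and Col1a2 (type I collagen) of -1.49 and -1.52 and of -1.57 and -1.59, and Col3a1 (type III collagen) of -0.62 and -0.98. The list's mean level was 10.29 to 10.43 on the vehicle arrays, 9.73 to 9.82 with anisomycin and 9.57 to 9.68 with imiquimod. Between the treatments 8 of the 10 were not called, with a median of 0.03. Pdgfra (0.82) and Pdgfrb (0.55) were higher with anisomycin and none was lower. S100a4 differed by -0.38 between the treatments. The part of dermal cells in the fall of S100a4 was not tested.

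Many hair markers fell against vehicle, as S100a3 did. Of 15 measured hair shaft and follicle genes 11 fell with anisomycin, with a median of -0.44, and none rose. With imiquimod 6 fell, with a median of -0.27, and again none rose. Over all genes 23.3% and 22.4% were called lower. S100a3 had similar differences under both treatments, at -0.66 and -0.69. Krt25, an inner root sheath keratin, had differences of -1.80 (adjusted p = 0.000497) and -0.94 (adjusted p = 0.021). The imiquimod call ended without imiquimod replicate 1 (-0.68, adjusted p = 0.0756) or 2, or without vehicle replicate 3. Over the scalings the number that fell ran from 7 to 13 with anisomycin and from 3 to 8 with imiquimod. The 3 of 15, after cyclic loess normalization, are close to the share of all genes called lower. Krt71, also of the inner root sheath, fell by 1.09 with anisomycin (adjusted p = 0.00725) and was not called with imiquimod, at -0.49. Krt33a, a hair shaft keratin, had differences of -1.02 and -0.61, and Krt73 of -0.61 and -0.43. The imiquimod calls of Krt33a and Krt73 ended under 4 and 3 alternatives, and those of Dsg4 and Krt33b under 10 and 9. With anisomycin the calls of Dsg4, Krt34 and Krt31 ended under 12, 10 and 9. Padi3, the deiminase that acts on S100a3, was not called, at -0.07 and -0.05. The list's mean level was 5.97 to 6.23 on the vehicle arrays, 5.52 to 5.60 with anisomycin and 5.64 to 5.97 with imiquimod. The part of hair follicles in the fall of S100a3 was not tested.

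Keratinocyte markers were mixed, beside the rises of S100a14, S100a16 and S100a7a. Of 12, 5 rose and 3 fell with anisomycin, with a median of 0.21, and 6 rose and 2 fell with imiquimod, with a median of 0.18. After cyclic loess normalization the medians were 0.04 with anisomycin, with 5 higher and 4 lower, and -0.04 with imiquimod, with 4 higher and 4 lower. With arrays centred on their medians 8 were higher and 3 lower with anisomycin. The rises with anisomycin were those of Dsg3 (2.25), Sfn (1.76), Krt1 (1.35), Krt14 (0.80) and Itgb4 (0.55), and the falls those of Krt15, Krt10 and Col17a1, with Krt15 at -2.46. With imiquimod Krt15 and Col17a1 fell, Krt15 by 2.54 on the log2 scale. Krt5, a basal keratin, was 0.25 higher with imiquimod and called, but -0.02 and not called after cyclic loess normalization. Krt1, a spinous keratin, was lower with anisomycin than with imiquimod (-0.995, adjusted p = 0.0172), a call that ended under 4 alternatives, among them without anisomycin replicate 1 (-0.79, adjusted p = 0.0568).

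Cytokines and regulators known to induce calprotectin in keratinocytes rose in 13 of 17 cases with anisomycin and 14 with imiquimod, none fell, and medians were 1.38 and 1.15. Il1b rose by 6.63 and 6.10 and did not pass the threshold between treatments (0.53, adjusted p = 0.0794). Il1a, its relative that keratinocytes hold in store, rose by 3.64 and 3.43. Il1f6, which encodes interleukin-36 alpha, differed in the same direction as S100a8 and S100a9. It rose 2.30-fold with anisomycin (adjusted p = 0.00323) and 13.7-fold with imiquimod (adjusted p = 4.88e-06), a log2 difference of -2.58 between treatments (adjusted p = 0.000296). Il17f and Il20 were also lower with anisomycin than with imiquimod, by -0.81 and -0.39. Il24 ran the other way, with rises of 5.13 and 1.54 and a difference of 3.58 (adjusted p = 1.67e-07). It read 6.90 on all 3 imiquimod arrays, and such ties narrow the spread behind its p-value. Il6 (2.39), Osm (1.23), Tnf (0.80) and the transcription factor gene Cebpb (0.31) were also higher with anisomycin than with imiquimod. The calls of Il20 and Cebpb between treatments ended under 3 and 4 alternatives, all of them with 1 array left out. Il17a was not called in any comparison, at 0.05 and 0.04 from vehicle.

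Genes of closest pattern were sought by the root mean square difference over the 9 arrays, each gene set relative to its vehicle mean, among 17509 genes. For S100a8 the distance to S100a9 was 0.34, and the nearest outside the S100A members were Sprr2e (0.37), Sprr2d (0.67) and Lce3a (0.69), all cornified envelope genes of the same complex. For S100a9 they were Sprr2e (0.33), Sprr2d (0.46) and the stefin Stfa3 (0.61). Sprr2, Lce3 and Stfa genes belong to families of near-identical copies, so their single values are uncertain. Sprr2e rose by 5.44 with anisomycin and by 6.15 with imiquimod. Between the treatments Sprr2e differed by -0.70, Sprr2d by -0.35 and Stfa3 by -2.06, in the direction of S100a8 and S100a9. Lce3a differed by 0.49, the other way, so closeness by this measure does not mean the same order of treatments.

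S100a7a lay far from S100a8 by this measure, at 2.99. Its nearest genes were Adam8, a leukocyte metalloprotease (0.22), Ccl7, a monocyte chemokine (0.23), and Clec4n, which encodes the myeloid receptor dectin-2 (0.25). These rose by 2.90, 2.93 and 3.27 with anisomycin and by 2.22, 2.28 and 2.09 with imiquimod. The nearest to S100a3 were Inpp5k (0.04), Ctnnal1 (0.06) and Zfyve1 (0.06), but 53 genes lay within 0.1 of it, so its pattern is shared by many genes with small falls.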

How the data were processed

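Total RNA of whole mouse ears was measured on 9 arrays of the Affymetrix Mouse Gene 1.0 ST design. The authors deposited log2 expression values made with RMA, per the submitters' processing notes. The log2 scale was judged from their range of 2.39 to 13.97. The RMA version, the genome build and whether all arrays were normalized together are not given in the sources used here. Quantile normalization within RMA forces arrays to a common distribution, which can shift genes when many change.

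Of 35556 rows, 21789 carry 1 gene symbol in the platform annotation, 1621 several and 12146 none. Rows with 1 symbol were used, and per gene the probe set with the highest mean was kept, which left 19938 genes. A mean per group was fitted to all 9 arrays with limma 3.58.1 in R 4.3.3, with 6 residual and 3.16 prior degrees of freedom, with Benjamini-Hochberg adjustment over all genes and a threshold of 0.05. No filter on dim genes was used. The number of arrays limits the precision. The fit was checked on simulated data. The change of S100a8 relative to S100a9 was tested by exact permutation.

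Members, gene lists and alternatives were chosen with earlier results of these data known. All 10 members are named. From each list up to 4 called genes with the largest differences from vehicle are named, with Anxa1, Anxa2, Anxa11, Ager, Tlr4, Csf3r, Cxcr2, Ly6g, Il17a, Il1b and Padi3 in every case, and the 3 genes of closest pattern to S100a8, S100a9, S100a7a and S100a3, leaving out predicted loci, clone names and olfactory and vomeronasal receptors. Other list genes are named where a count is small or as a partner of a member, and these were chosen after their values were seen.

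Alternatives were a trended, robust prior, leaving out the dimmest 30% of genes, 3 other scalings, averaged probe sets, limma's array weights, a replicate block by label number, fitting only the groups compared, and leaving out each array. Il22 and Flg were not analysed here.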

Additional observations from a re-analysis of the deposited data

How the results depend on the processing

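Over 18 alternatives none of the 22 called differences of members was lost, and leaving out single arrays left 7 members higher and 2 lower in each comparison with vehicle, and 1 higher and 3 lower with anisomycin than with imiquimod. Array weights raised the count of members higher with anisomycin than with imiquimod from 1 to 3, adding S100a6 and S100a10. Under the same weights such calls rose from 2147 to 4536 over all 19938 genes, and the cause was not tested. S100a3, not called between the treatments at 0.03, changed sign to -0.030 with array weights and ran from -0.036 (without imiquimod replicate 1) to 0.091 (without imiquimod replicate 3) when single arrays were left out. With the replicate number as a block the counts were again 7 and 2 with either treatment and 1 and 3 between them. Deviations of arrays that share a number correlated at -0.20 to 0.20. Arrays of unlike number were not compared, so these values do not decide whether the numbers mark pairs. The excess of S100a8 over S100a9 ran from 0.43 to 0.54 with anisomycin and from 0.27 to 0.38 with imiquimod when single arrays were left out, and their difference between treatments from 0.13 to 0.18. Signal over background was not used here.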
